A study of Homo sapiens with 6 samples.

Results

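Keratins are the intermediate filament proteins of epithelial cells, and their genes were compared here between control cells and cells depleted of the kinase SGK1. The 55 members are the protein-coding genes of the deposited table named KRT with a number and at most one further letter, out of 58302 genes, of which 19847 are protein-coding. By position, 29 are type I keratins (28 on chromosome 17, and KRT18 on chromosome 12) and 26 are type II keratins, all on chromosome 12. ME180 is an established epithelial line derived from a human cervical cancer. Its cells received either a non-targeting siRNA (siControl, 3 libraries) or an siRNA directed at SGK1 (siSGK1, 3 libraries), and polyA RNA was sequenced 48 h later. The 3 libraries of a group, numbered 2, 3 and 4, are described as biological repeats, and nothing in the sources says whether they came from separately grown cultures, so the p-values measure the spread between these libraries. No clone, sort or further genotype is named, and both groups carry a transfected siRNA.

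A keratin filament is built from heterodimers of a type I (acidic) and a type II (basic to neutral) keratin, so each cell expresses members of both types. Which members are made depends on the epithelium: KRT8 and KRT18 in simple epithelia, KRT5 and KRT14 in the basal layer of stratified epithelia, KRT1 and KRT10 in the layers above it in skin, KRT4 and KRT13 in moist stratified mucosa such as the outer cervix, and KRT6, KRT16 and KRT17 in activated or wounded keratinocytes. Another large set builds hair and nail. The filaments are anchored to cell junctions by linkers such as desmoplakin and plectin.

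The libraries held 27262794 to 27874948 reads assigned to genes in siControl and 28405647 to 35242643 in siSGK1. SGK1 itself, the serum and glucocorticoid regulated kinase, stood at 3.91, 4.27 and 4.17 FPKM (reads normalized by the length of the gene and the size of the library) in siControl replicates 2, 3 and 4 and at 1.58, 1.70 and 1.81 FPKM in siSGK1, a log2 change of −1.07 ± 0.07 (SE; adjusted p = 1.88e-05). All 6 epithelial markers other than keratins were present, with a summed level of 224 to 237 FPKM in siControl and 223 to 234 FPKM in siSGK1, and none of the 6 was called. All 5 squamous markers were present. Of these TP63, the master regulator of stratified epithelium, was not called, with a log2 change of 0.0024 (adjusted p = 0.976), while DSG3, SERPINB5 and SFN were lower. PERP was not called either, at 72.9 ± 2.1 and 78.9 ± 1.3 FPKM (SD, n = 3 each; log2 change 0.11, adjusted p = 0.0588). Every siSGK1 library lay above every siControl library for PERP. Fibroblast, endothelial and leukocyte markers were at or near 0 apart from COL1A1 (4.93 and 5.37 FPKM) and VWF (1.34 and 0.529 FPKM): 1 of 7, 0 of 4 and 0 of 4 reached a mean of 1 FPKM, and PECAM1 had no read.

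Most expressed keratins fell after SGK1 knockdown. Of the 33 keratins with a mean of at least 1 FPKM, 25 fell, 5 rose (KRT40, KRT34, KRT81, KRT86 and KRT7) and 3 were not called (KRT18, KRT80 and KRT83). Calls rest on limma on log2(FPKM + 0.5), with a threshold of 0.05 on p adjusted over all 11945 genes tested. By the same rule 40.6% of all tested genes were called, 22.7% lower and 17.9% higher. The median log2 change was −0.86 over the 33 keratins and −0.006 over all tested genes. It was −0.74 over the 15 tested type I keratins (12 lower, 2 higher) and −0.87 over the 18 tested type II keratins (13 lower, 3 higher). In bulk RNA, fewer cells of a type and less RNA per cell cannot be told apart.

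The size of the change ranged from a 6.51-fold lower mean FPKM (KRT1) to a 1.604-fold higher one (KRT40). A called fall of at least 2-fold was seen in 15 of 33 keratins and in 1.33% of all tested genes. This count and the 25 that fell include KRT2 and KRT78, which reached the mean of 1 FPKM through siControl alone. They averaged 1.86 and 1.62 FPKM in siControl and 0.372 and 0.667 FPKM in siSGK1. All 3 siSGK1 libraries lay below all 3 siControl libraries for the 25 keratins that fell, an arrangement found in 28.8% of all tested genes. They lay above them for the 5 that rose, an arrangement found in 24.6% of all tested genes. For KRT18, KRT80 and KRT83 the groups overlapped. The plot of levels by library shows the 33 genes, whose levels span more than 1000-fold.

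**Figure D1:**
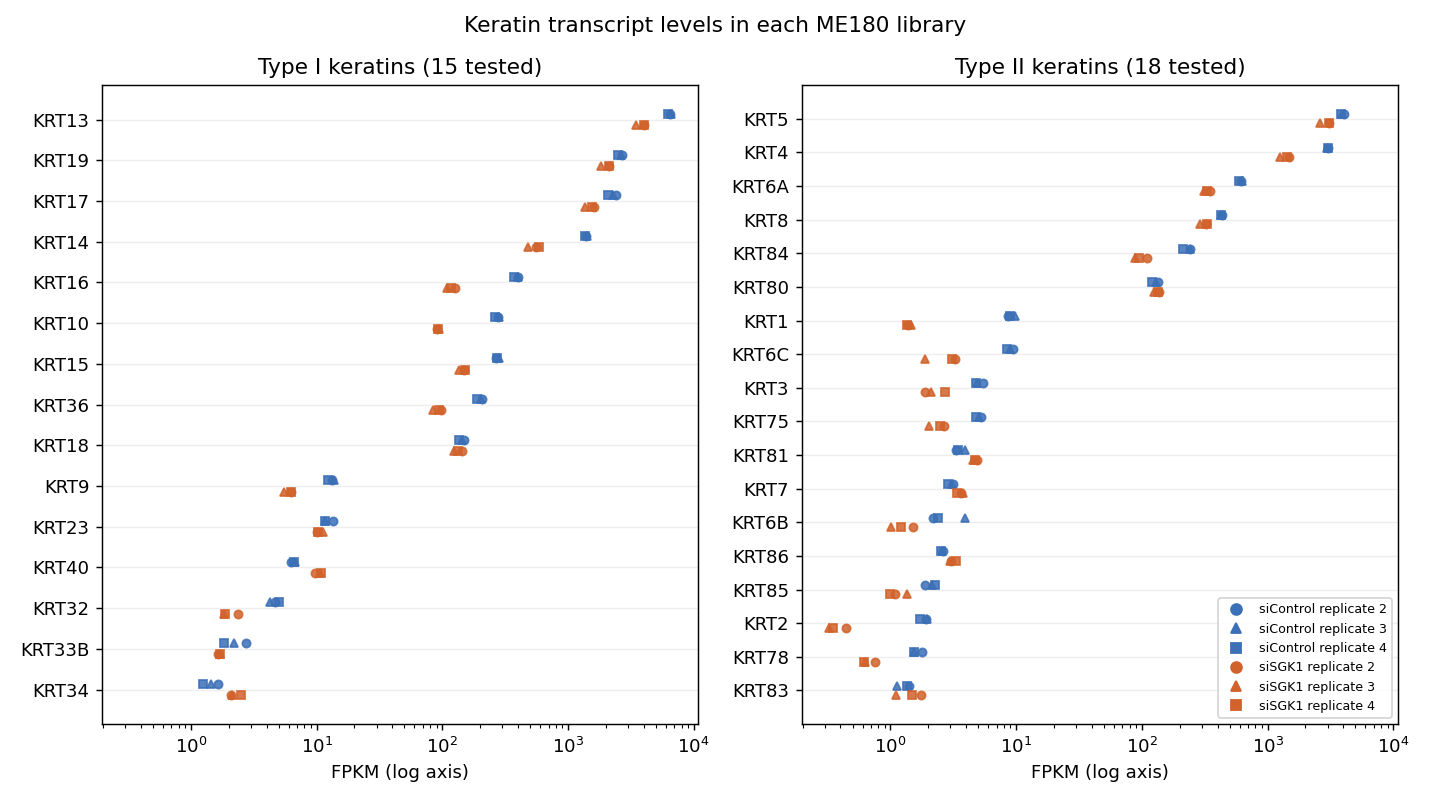
FPKM of each tested keratin (log axis) in the 3 siControl libraries (blue) and the 3 siSGK1 libraries (orange), with the marker shape giving the replicate number; type I on the left, type II on the right. The groups are apart for 30 of the 33 genes and overlap for KRT18, KRT80 and KRT83.

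The table of RefSeq promoter windows (GRCh38.p14, from 250 bases before to 50 after the start) held 34 of the 55 keratins, 15 of them tested. Among the members without a window are KRT1 and KRT16, with the lowest log2 changes, and KRT6A, KRT13, KRT14, KRT17 and KRT19. The 5 windows below were picked from those present. They belong to KRT10 and KRT84, which fell more than 2-fold, KRT4 and KRT5, the most abundant type II members, and KRT40, the largest rise. Capitals mark an exact TATAAA, the core of a TATA box (read from either strand, so TTTATA in KRT84), and an AP-2 motif GCCNNNGGC. An AP-1 motif TGANTCA was searched too. KRT5 and KRT40 held none of the 3 and are therefore all in lower case. All 5 genes are read from the minus strand, and the windows are written 5′ to 3′ in the direction of transcription.
KRT10 (chr17:40822565-40822864): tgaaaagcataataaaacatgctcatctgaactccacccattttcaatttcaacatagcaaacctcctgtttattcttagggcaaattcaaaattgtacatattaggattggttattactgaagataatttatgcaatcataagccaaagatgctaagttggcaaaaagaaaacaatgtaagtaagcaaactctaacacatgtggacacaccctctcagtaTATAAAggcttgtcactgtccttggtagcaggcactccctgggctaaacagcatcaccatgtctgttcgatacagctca
KRT84 (chr12:52385603-52385902): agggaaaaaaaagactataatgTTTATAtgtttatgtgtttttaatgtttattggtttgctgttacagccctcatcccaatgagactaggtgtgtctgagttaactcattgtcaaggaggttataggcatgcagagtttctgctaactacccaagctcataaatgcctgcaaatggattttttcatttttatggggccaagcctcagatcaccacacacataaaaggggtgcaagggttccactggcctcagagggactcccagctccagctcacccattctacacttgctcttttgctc
KRT4 (chr12:52814067-52814366): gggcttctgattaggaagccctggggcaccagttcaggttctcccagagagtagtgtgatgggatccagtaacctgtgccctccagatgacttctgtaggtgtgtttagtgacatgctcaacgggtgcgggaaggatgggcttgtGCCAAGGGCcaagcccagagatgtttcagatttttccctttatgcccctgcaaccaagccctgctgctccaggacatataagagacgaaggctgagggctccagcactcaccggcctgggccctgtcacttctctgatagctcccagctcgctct
KRT5 (chr12:52520345-52520644): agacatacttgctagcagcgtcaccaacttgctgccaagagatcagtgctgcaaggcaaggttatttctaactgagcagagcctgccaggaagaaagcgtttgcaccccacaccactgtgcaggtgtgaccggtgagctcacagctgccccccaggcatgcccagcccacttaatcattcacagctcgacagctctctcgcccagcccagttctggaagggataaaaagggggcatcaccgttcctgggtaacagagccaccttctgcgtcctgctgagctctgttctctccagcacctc
KRT40 (chr17:40987086-40987385): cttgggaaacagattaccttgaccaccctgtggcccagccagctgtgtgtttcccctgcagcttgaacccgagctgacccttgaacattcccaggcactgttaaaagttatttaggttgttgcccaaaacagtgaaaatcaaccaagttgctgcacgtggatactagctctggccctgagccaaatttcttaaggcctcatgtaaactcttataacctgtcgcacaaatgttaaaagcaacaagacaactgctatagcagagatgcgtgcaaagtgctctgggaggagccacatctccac

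The TATAAA of KRT10 begins 29 bases before the start, while that of KRT84 lies 228 bases before it. In KRT4 the AP-2 letters begin 105 bases before the start. The RefSeq start used for KRT4 lies 435 bases from the gene end in the deposited table, and that of KRT5 lies 293 bases from it, so these windows may not be the start used in ME180 cells. Among the windows counted but not shown, those of KRT8 and KRT36 lie further off, at 23485 and 2636 bases. Over all 34 keratin windows, TATAAA occurred on either strand in 20 (58.8%), against 9.46% of the 14677 promoter windows in the table. Among the 15 tested keratins it was found in 5 (KRT10, KRT3, KRT33B, KRT34 and KRT84), against 5.17% of the windows of all tested genes. Among the 19 keratins below the level filter it was found in 15. An exact match anywhere in the window was counted, so the distant letters of KRT84 are included. Of the windows of tested keratins, 4 of 13 that fell and 1 of 2 that rose held TATAAA.

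The other motifs searched, on both strands, are bound by factors with a known part in epithelial genes or downstream of growth factor and hormone signals. CACCC, the core letters of Kruppel-like factors, was found in 27 of 34 keratin windows (79.4%, against 63.1% of all) and in 14 of the 15 tested. The SP1 motif GGGCGG, which can share letters with GC-rich AP-2 matches, was found in 6 of 34 (17.6%, against 59.7%), and the AP-2 motif in 5 of 34 (14.7%, against 28.7%). The C/EBP motif TTGCNNAA was found in 4 of 34 (11.8%, against 8.27%), among them KRT10, KRT40 and the distant window of KRT8. No keratin window held the AP-1 motif (5.71% of all), the FOXO motif GTAAACA (2.70% of all) or the glucocorticoid receptor palindrome, GNACA and TGTNC spaced by 3 bases (0.218% of all). These counts cover the 34 windows only, 19 of them of keratins below the level filter. KRT1, KRT6A, KRT13, KRT14, KRT16, KRT17 and KRT19 had no window and were not searched for any motif. A match describes the letters of a window and not binding.

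The keratins of the suprabasal epidermis had the lowest median log2 change of the classes, −1.50 over the 4 tested members, all of which fell. KRT1, the type II keratin of these layers, stood at 8.62, 9.76 and 8.96 FPKM in siControl and at 1.38, 1.47 and 1.35 FPKM in siSGK1. The siSGK1 libraries lay close together at 15.4% of the siControl mean (log2 change −2.34 ± 0.06, SE; adjusted p = 8.93e-07). KRT10, with which it forms filaments, was far more abundant, at 278, 284 and 263 FPKM in siControl against 90.7, 93.3 and 92.0 FPKM in siSGK1. This was a 2.99-fold lower level (log2 change −1.57 ± 0.04, SE; adjusted p = 8.93e-07). KRT2, a keratin of late differentiation, had 1.92, 1.94 and 1.71 FPKM in siControl and 0.445, 0.323 and 0.346 FPKM in siSGK1, where 27 to 33 reads per library were behind the value. It enters the class median although it passed the level filter through siControl alone. KRT9, the keratin of palm and sole, went from 13.1 ± 0.68 to 6.01 ± 0.43 FPKM (SD, n = 3 each; log2 change −1.07). The fifth listed member, KRT77, was below the level filter.

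All 3 basal-layer keratins fell, to different extents. KRT14, the type I keratin of the basal layer, stood at 1389.7, 1416 and 1359 FPKM in siControl and at 559, 479.7 and 585 FPKM in siSGK1, which is 2.56-fold lower (log2 change −1.36 ± 0.07, SE; adjusted p = 9.28e-06). Its type II partner KRT5 was the most abundant type II keratin in both groups, at 4079, 3943 and 3859.8 FPKM in siControl and 3075, 2615 and 3070.2 FPKM in siSGK1. The fall of KRT5 was smaller, at 1.36-fold (log2 change −0.44 ± 0.07, SE; adjusted p = 0.0017), and under quantile normalization it was no longer called (log2 change −0.041, adjusted p = 0.364), nor when genes of every level were tested (adjusted p = 0.0954). KRT15, a basal type I keratin, went from 272 ± 8 to 146 ± 10 FPKM (SD, n = 3 each; log2 change −0.90). KRT14 shared 16.8% of its 50-base stretches with transcripts of other genes, chiefly KRT16 and its pseudogenes, so part of its reads may be theirs.

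The 5 keratins of activated keratinocytes all fell, with a median log2 change of −0.91. KRT16 stood at 398, 401 and 372 FPKM in siControl and at 127, 108 and 118 FPKM in siSGK1, a 3.32-fold difference (log2 change −1.73 ± 0.06, SE; adjusted p = 2.68e-06). KRT6A, its type II partner and the most abundant of the KRT6 genes, had 618, 622 and 589 FPKM in siControl and 346, 311 and 331 FPKM in siSGK1 (1.85-fold lower; log2 change −0.89). KRT17, a type I keratin of wound edges and of many squamous tumours, had 2409, 2301 and 2065 FPKM in siControl against 1620.2, 1371 and 1543 FPKM in siSGK1. Its fall was the smallest of the class (log2 change −0.58 ± 0.08, SE; adjusted p = 0.000699). KRT6C, a near copy of KRT6A, went from 8.90 ± 0.45 to 2.75 ± 0.75 FPKM and KRT6B from 2.82 ± 0.93 to 1.24 ± 0.25 FPKM (SD, n = 3 each). These low values are uncertain, since KRT6B shared 47.1%, KRT6C 44.4% and KRT6A 32.1% of their 50-base stretches with other genes, mainly with each other. KRT16 shared 16.5%, KRT17 9.02%.

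The keratins of stratified mucosa and cornea held the largest part of the pool, and the 4 tested members all fell. KRT13, the type I keratin of moist stratified epithelium, was the most abundant keratin in every library, at 6426, 6639.9 and 6243 FPKM in siControl and 4045, 3489.5 and 4035 FPKM in siSGK1. This was 1.67-fold lower (log2 change −0.74 ± 0.07, SE; adjusted p = 0.000114). Under quantile normalization, which forces the top ranks of every library to the same values, KRT13 was not called (log2 change −0.043, adjusted p = 0.353). Its type II partner KRT4 fell further, from 3012, 2947 and 3000.1 FPKM to 1490.0, 1256 and 1416 FPKM (2.15-fold; log2 change −1.11 ± 0.07, SE; adjusted p = 1.52e-05). KRT3, a keratin of the cornea, had 5.05 ± 0.38 and 2.22 ± 0.42 FPKM, and KRT78, a type II keratin of stratified epithelia, had 1.62 ± 0.15 and 0.667 ± 0.073 FPKM (SD, n = 3 each). Their log2 changes were −1.04 and −0.86, and KRT78 passed the level filter through siControl alone. KRT13 overlaps AC019349.1 by 476 exon bases on the opposite strand, a gene listed at 0 in every library.

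Simple-epithelial keratins moved less and not in the same direction, with a median log2 change of −0.24 over 4 tested members. KRT19, a small type I keratin found in simple and basal epithelium, was the second most abundant type I keratin, at 2707, 2646 and 2504 FPKM in siControl and 2101, 1826 and 2125 FPKM in siSGK1. It fell 1.30-fold (log2 change −0.38 ± 0.07, SE; adjusted p = 0.00301), but had a log2 change of 0.026 under quantile normalization (adjusted p = 0.545) and an adjusted p of 0.0921 when genes of every level were tested. KRT8 had 434, 426 and 425 FPKM in siControl and 323, 287 and 328 FPKM in siSGK1 (log2 change −0.46 ± 0.06, SE; adjusted p = 0.00044). Its type I partner KRT18 overlapped between groups, at 150.1, 143 and 137 FPKM against 143, 124 and 132 FPKM, with a log2 change of −0.11 whose 95% interval ran from −0.25 to 0.04. The sign of the KRT18 value turned under total-read scaling (with or without keratin reads), TPM and quantile scaling (0.0027 to 0.10), without a call. KRT8 and KRT18 overlap by 525 exon bases on opposite strands, and no source used here states how strand was treated in counting, so reads there cannot be told apart. KRT7, a type II keratin of glandular epithelium, was low and rose from 3.03 ± 0.14 to 3.58 ± 0.18 FPKM (SD, n = 3 each; log2 change 0.21, adjusted p = 0.0286). That call was lost without siControl replicate 3 or 4, without siSGK1 replicate 2 or 3 and without the level filter (adjusted p 0.0610 to 0.0808).

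Hair keratins also changed in both directions: of 11 tested members, 6 fell, 4 rose and 1 was not called. The most abundant were KRT84, a type II keratin of nail, tongue and hair, and KRT36, a type I keratin of the same appendages. KRT84 had 243, 242 and 212 FPKM in siControl against 110.3, 88.6 and 95.6 FPKM in siSGK1 (log2 change −1.24 ± 0.09, SE; adjusted p = 2.57e-05). KRT36 had 206, 204 and 189 FPKM against 98.1, 83.9 and 93.4 FPKM (log2 change −1.12 ± 0.06, SE; adjusted p = 1.3e-05). The 2 genes had fallen by like amounts, 2.37-fold and 2.18-fold, with at least 5182 reads behind each value. KRT32 of the hair cuticle, KRT75 of the hair follicle's companion layer, KRT85 of the hair matrix and KRT33B of the cortex were all under 6 FPKM and had log2 changes of −1.04, −0.94, −0.67 and −0.33. The KRT33B call (adjusted p = 0.0439) was lost under 10 alternatives, among them every omission of a library except siControl replicate 4, and KRT33B shared 27.7% of its 50-base stretches with KRT33A and others.

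KRT40, a type I keratin of the hair cuticle, showed the largest rise of the family, from 6.22, 6.70 and 6.62 FPKM in siControl to 9.74, 10.7 and 10.9 FPKM in siSGK1 (1.604-fold; log2 change 0.64 ± 0.06, SE; adjusted p = 9.34e-05). KRT34 of the hair cortex rose from 1.65, 1.45 and 1.25 FPKM to 2.08, 2.14 and 2.49 FPKM (log2 change 0.49 ± 0.10, SE; adjusted p = 0.0049), on 59 to 160 reads per library. KRT81 and KRT86, a near-identical type II hair keratin pair, had 3.56 ± 0.31 and 2.57 ± 0.06 FPKM in siControl against 4.71 ± 0.15 and 3.11 ± 0.18 FPKM in siSGK1 (SD, n = 3 each). Their log2 changes were 0.36 and 0.23, they shared 43.7% and 37.5% of their 50-base stretches with other genes, mostly each other, and the KRT86 call was lost without siControl replicate 3 or siSGK1 replicate 4 (adjusted p = 0.0539 and 0.0757). KRT83 of the hair cortex did not pass the test, with 1.40, 1.13 and 1.36 FPKM against 1.74, 1.11 and 1.47 FPKM. Outside these classes, KRT80, a type II keratin of differentiating epithelia, was not called at 128 ± 7 and 132 ± 5 FPKM, and KRT23, a type I keratin, had 12.3 ± 1.0 and 10.53 ± 0.58 FPKM (SD, n = 3 each; log2 change −0.22, adjusted p = 0.032). The 95% interval of the log2 change was −0.09 to 0.16 for KRT80 and −0.19 to 0.39 for KRT83. KRT80 was called higher under total-read scaling (with or without keratin reads), TPM and quantile scaling, with log2 changes of 0.14 to 0.24 and adjusted p of 0.0012 to 0.0216. KRT23 lost its call under those scalings, when genes of every level were tested, and without siControl replicate 2, siSGK1 replicate 2 or siSGK1 replicate 4.

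**Figure D2:**
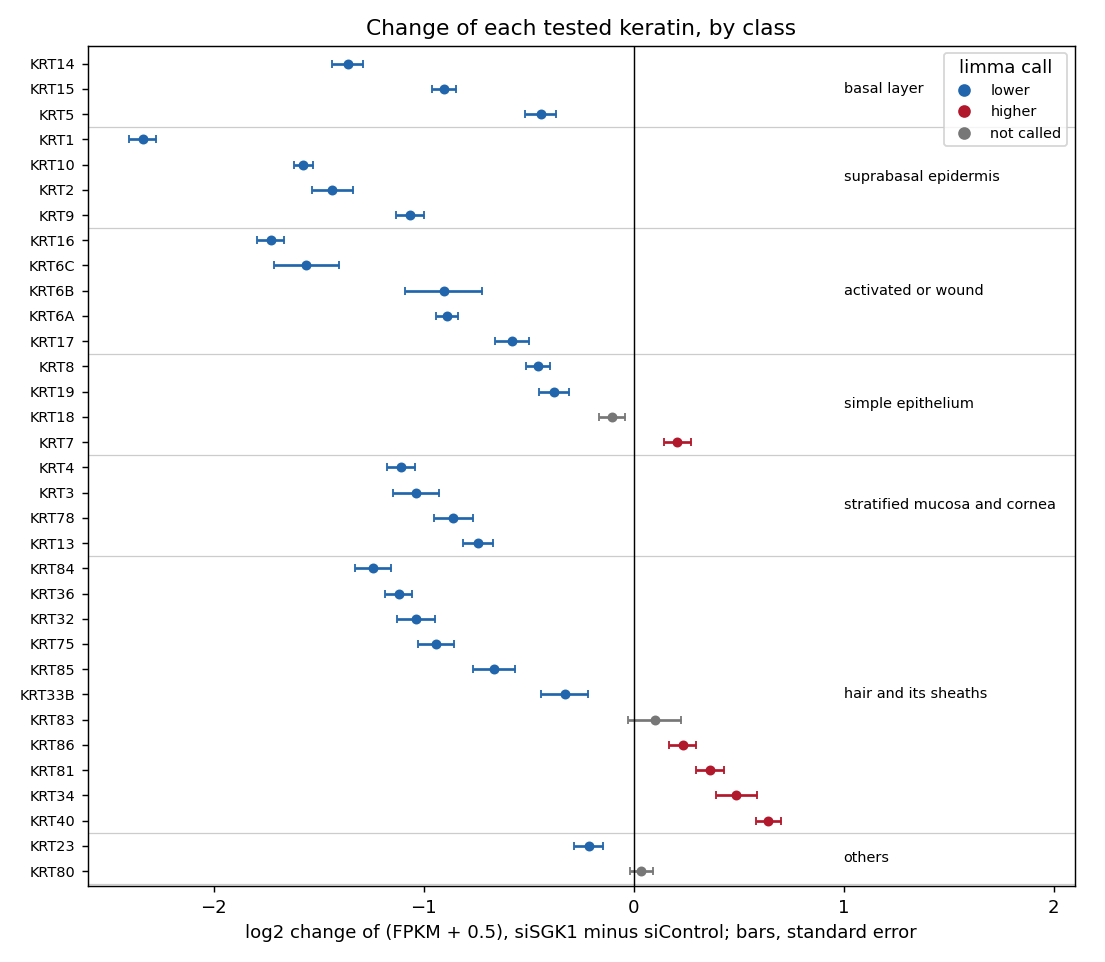
Log2 change of FPKM + 0.5 (siSGK1 minus siControl) for the 33 tested keratins, grouped by class, with standard errors from limma; colours give the call. Every tested keratin of the basal, suprabasal, activated and mucosal classes lies left of 0, while the hair class reaches from −1.24 to 0.64.

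The 22 keratins below the level filter were nearly silent: 10 had at most 10 reads over all 6 libraries, with none at all for KRT26 and KRT28, 9 had 11 to 100 and 3 had over 100. The highest count in any library was 44 reads, for KRT33A. Of the 22, 14 are type I, 8 are type II, and 15 belong to the hair class. KRT33A, KRT74, KRT39, KRT76, KRT77 and KRT71 had most reads. KRT39, the neighbour of KRT40, had 15, 8 and 10 reads in siControl and 36, 16 and 27 in siSGK1. KRT76, a keratin of the palate and gum, had 15, 12 and 18 reads against 7, 0 and 1, and was the only member of the 22 to be called when all genes were tested (adjusted p = 0.0259).

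The summed level of type I keratins fell to 60.9% of siControl and that of type II keratins to 62.0%. Type I members summed to 14272, 14358 and 13442 FPKM in siControl and to 8968, 7744 and 8911 FPKM in siSGK1. Type II members summed to 8569.6, 8359 and 8253 FPKM in siControl and to 5506, 4707 and 5401 FPKM in siSGK1. The type I sum was 1.67 ± 0.04 times the type II sum in siControl and 1.64 ± 0.01 times in siSGK1 (SD, n = 3 each), with overlapping libraries. Keratins took 6.79% ± 0.12 of all reads assigned to genes in siControl and 4.67% ± 0.25 in siSGK1. By this share of reads, siSGK1 stood at 68.7% of siControl. The FPKM sums also carry gene length and the scaling of the deposited values. The sums rest on few genes. KRT13 gave 29.7% of the summed fall in FPKM, KRT4 18.4%, KRT5 12%, KRT14 9.77%, KRT17 8.61% and KRT19 6.94%.

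Within each type the make-up of the pool shifted. KRT13 held its share of the type I sum, at 45.9% ± 0.8 and 45.1% ± 0.1 (SD, n = 3 each). KRT19 went from 18.7% ± 0.3 to 23.6% ± 0.2 and KRT17 from 16.1% ± 0.8 to 17.7% ± 0.4, while KRT14 went from 9.90% ± 0.19 to 6.33% ± 0.20. KRT16 went from 2.78% to 1.38% and KRT10 from 1.96% to 1.08%, and KRT18, whose level was not called, from 1.02% to 1.56%. Among type II keratins, KRT5 went from 47.2% ± 0.4 to 56.1% ± 0.7 and KRT4 from 35.6% ± 0.7 to 26.7% ± 0.4. By class, simple-epithelial keratins made up 14.2% ± 0.2 of all keratin FPKM in siControl and 17.9% ± 0.2 in siSGK1, mucosal and corneal ones 42.1% ± 0.7 and 38.2% ± 0.1, and suprabasal ones 1.33% ± 0.02 and 0.730% ± 0.068. These shares are described and not tested, and a share of a sum moves whenever another member does.

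**Figure D3:**
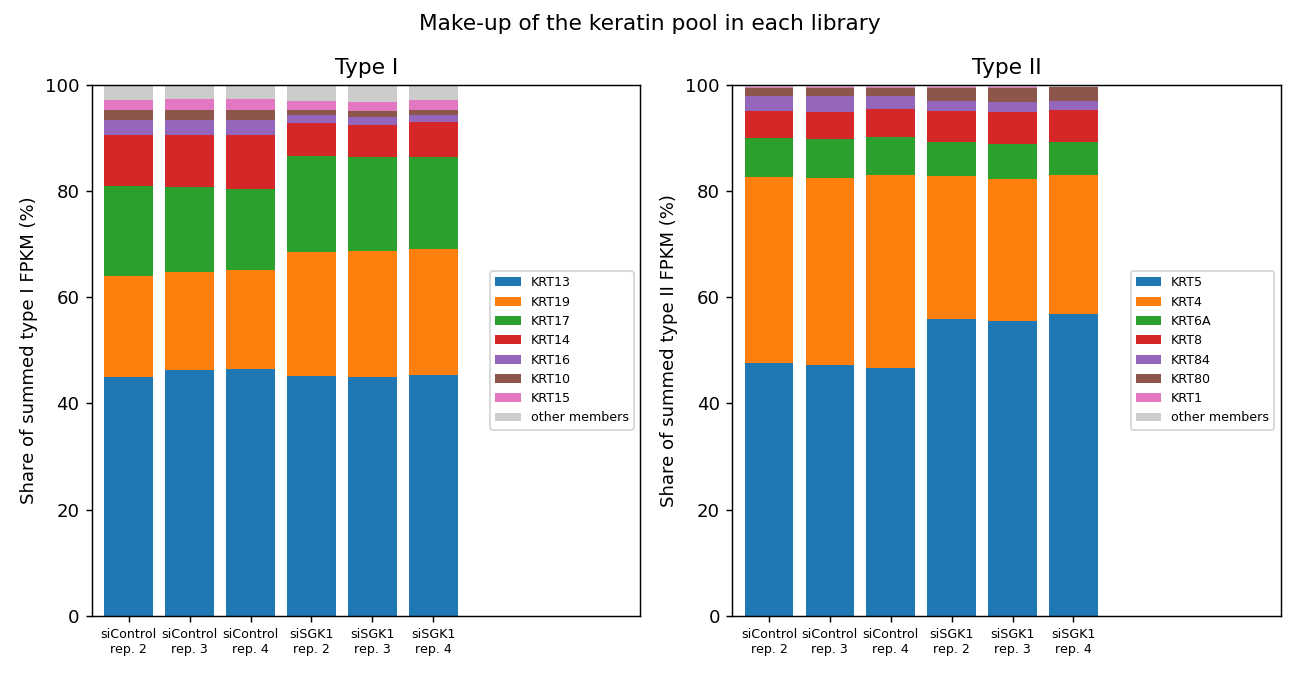
Share of the summed FPKM of type I (left) and type II (right) keratins taken by the most abundant members and KRT1 in each library. KRT5 takes 46.8% to 47.6% of the type II sum in siControl and 55.6% to 56.8% in siSGK1, while KRT4 goes the other way.

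The FPKM ratio of a type II keratin to its type I filament partner does not depend on the scaling between libraries, and 8 textbook pairs were compared. The test used log2 ratios of FPKM + 0.5, and the added 0.5 does bear on pairs with a low member such as KRT1. With 3 libraries against 3 the smallest p an exact permutation test can give is 0.1, so no pair could pass 0.05. The groups did not overlap for 7 of the pairs (exact two-sided permutation p = 0.1, adjusted p = 0.114 over the 8), and overlapped for KRT6B/KRT17 (exact p = 0.2). Levels of single genes were also often apart, lower in siSGK1 for 28.8% of all tested genes and higher for 24.6%. Ratios of other gene pairs were not compared, so 7 of 8 has no background share. In the basal layer, KRT5/KRT14 was 2.94, 2.78 and 2.84 in siControl and 5.50, 5.45 and 5.25 in siSGK1, and KRT5/KRT15 went from 14.6 ± 0.7 to 20.03 ± 0.56 (SD, n = 3 each). In the activated class, KRT6A/KRT16 went from 1.56 ± 0.02 to 2.81 ± 0.08. In these 3 pairs the type I partner had fallen further. The opposite held where the type II partner had fallen further: KRT4/KRT13 was 0.469, 0.444 and 0.481 in siControl and 0.368, 0.360 and 0.351 in siSGK1, KRT8/KRT18 went from 2.999 ± 0.110 to 2.35 ± 0.12, and KRT1/KRT10 from 0.0332 ± 0.0018 to 0.0152 ± 0.0005. KRT7/KRT19 went from 0.00116 to 0.00179, with KRT7 and KRT19 moving in opposite directions in the deposited scaling. Under quantile normalization KRT19 had a log2 change of 0.026, and the KRT7 call was lost under some alternatives. KRT8 and KRT15 have long annotated gene lengths, which lowers their FPKM, so the level of a ratio is less certain than its difference between groups.

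**Figure D4:**
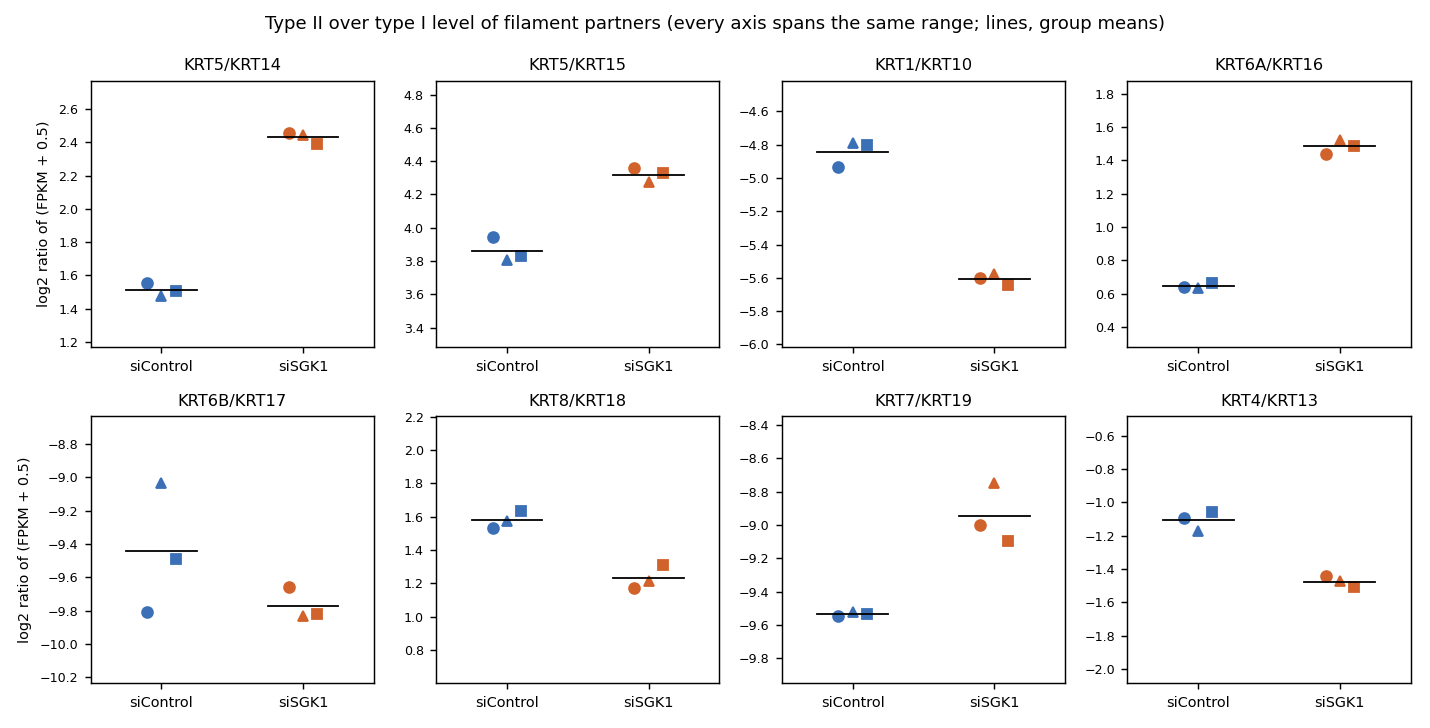
Log2 ratio of FPKM + 0.5 of a type II keratin over its type I partner in each library (blue circles, triangles and squares, siControl replicates 2, 3 and 4; orange, siSGK1), with lines at the group means; every panel spans the same range of log2 units. KRT5/KRT14 and KRT6A/KRT16 are higher in siSGK1 by 0.92 and 0.84, KRT1/KRT10 is lower by the size of its −0.76 difference, and only KRT6B/KRT17 overlaps.

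The genes lie in a cluster on each chromosome, 28 members over 970 kb on chromosome 17 (40654665 to 41624842) and 27 over 784 kb on chromosome 12 (52168996 to 52952901). On chromosome 12 the calls differed between stretches. The first 5 members, KRT80, KRT7, KRT86, KRT81 and KRT83 (52168996 to 52321398), held 3 that rose, 2 not called and none that fell. All 13 tested members from KRT85 to KRT8 (52360006 to 52949954) fell. KRT18, at the far end, was not called. These stretches were chosen after the values were seen. On chromosome 17, 12 of 14 tested members fell, and the 2 that rose, KRT40 (40977716 to 40987135) and KRT34 (41377650 to 41382403), were not adjacent. KRTAP3-1, a hair keratin-associated protein gene between them (41008521 to 41019324), rose from 52.8 ± 11.5 to 164.2 ± 4.4 FPKM (SD, n = 3 each), and was also chosen after its values were seen.

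**Figure D5:**
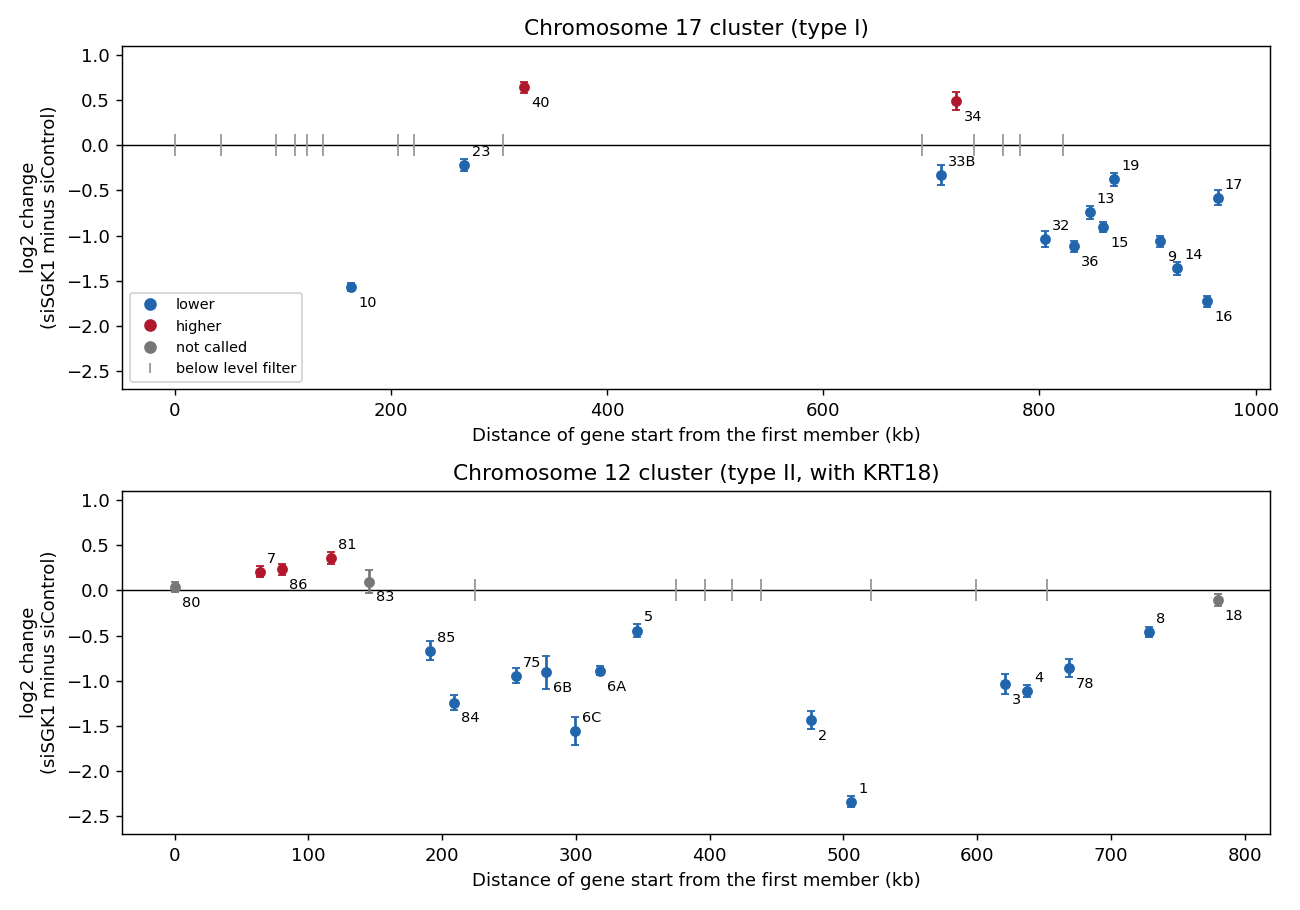
Log2 change (siSGK1 minus siControl, with standard errors) of each tested keratin against the distance of its gene start from the first member of its cluster in kb; numbers are the KRT numbers, colours the call and grey ticks the members below the level filter. On chromosome 12 the members that rose lie within the first 152 kb, and those from KRT85 to KRT8 lie below 0.

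Other genes around the clusters were called in both directions. There were 41 tested protein-coding genes that start within 500 kb outside either cluster. Of these, 15 fell (36.6%, against 22.7% of all tested genes) and 9 rose (22.0%, against 17.9%). Their median log2 change was −0.05. The desmosome gene JUP and the retinoic acid receptor RARG are among them and also in a list below. Around the chromosome 17 cluster these counts were 8 and 6 of 23, and around the chromosome 12 cluster 7 and 3 of 18. The smallest p-values belonged to GAST, which encodes gastrin (log2 change −1.55), the topoisomerase gene TOP2A (0.90) and HAP1 (−0.59) on chromosome 17, and to IGFBP6, an inhibitor of insulin-like growth factor (−0.52), the activin receptor ACVR1B (−0.57) and the separase gene ESPL1 (0.39) on chromosome 12. TMEM99 overlaps the KRT10 gene by 56 exon bases on the opposite strand and was not called (log2 change −0.05, adjusted p = 0.624).

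Genes that anchor keratin filaments were also lower for the most part. Of 13 tested linker genes of 14 listed, 9 fell and 1 rose (PKP2, a plakophilin), with a median log2 change of −0.31. Thus 69.2% were lower and 7.69% higher, against 22.7% and 17.9% of all tested genes. Desmoplakin (DSP), which ties filaments to desmosomes, went from 46.3 ± 3.3 to 33.0 ± 1.0 FPKM, plakophilin 1 (PKP1) from 116.8 ± 0.1 to 83.9 ± 6.5 FPKM and periplakin (PPL) from 58.5 ± 0.4 to 44.1 ± 2.6 FPKM (SD, n = 3 each; log2 changes −0.48, −0.48 and −0.41). Of 18 other intermediate filament genes, 8 were tested, 2 fell and 3 rose, with a median log2 change of 0.15. With 25% lower and 37.5% higher, the share that fell was near that of all tested genes. IFFO2 went from 16.2 ± 0.8 to 8.69 ± 0.31 FPKM, the neurofilament gene NEFL from 34.6 ± 1.8 to 24.6 ± 1.5 FPKM, and the nuclear lamin LMNB1 from 29.4 ± 0.6 to 47.5 ± 1.7 FPKM (SD, n = 3 each).

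Of 30 transcription factors with a known part in keratin gene regulation, 26 were tested. Of these, 14 fell and 1 rose (JUN, log2 change 0.68), with a median log2 change of −0.18. Thus 53.8% were lower and 3.85% higher, against 22.7% and 17.9% of all tested genes. NFE2L2, the regulator of the oxidative stress response, went from 12.3 ± 0.4 to 6.30 ± 0.09 FPKM, CEBPA from 9.82 ± 0.42 to 4.65 ± 0.32 FPKM and GRHL3, a grainyhead factor of the skin barrier, from 22.2 ± 0.7 to 13.4 ± 0.7 FPKM (SD, n = 3 each; log2 changes −0.92, −1.005 and −0.71). TFAP2A, TFAP2C, KLF4 and NR3C1, the glucocorticoid receptor, were not called, with log2 changes of 0.01 to 0.03. No factor's part in the keratin changes was tested.

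The scaling of the deposited values bears on these counts. The values set the median gene near −0.006, and scaling by total reads or to TPM moved that median to 0.12 and 0.18. Under either scaling 23 keratins were called lower and 6 higher, while the split of all genes moved from 2709 lower and 2143 higher to 1546 and 4309 (total reads), or 1171 and 5644 (TPM). The siSGK1 library of replicate 3 was the lowest of its group for 23 of the 33 tested keratins and for 14 of the 15 with a siControl level over 100 FPKM. Without that library 24 keratins were called lower and 4 higher.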

How the data were processed

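Per the submitters' processing notes, reads were handled with bcl2fastq 2.19, HISAT2 2.0.5 and featureCounts 1.5.0-p3, on hg19. The gene positions in the deposited table are nevertheless read as GRCh38, since 56545 of the 58039 gene identifiers shared with GENCODE 29 (97.4%) have the position given there, and 53 of the 55 keratins do (not KRT12 and KRT17). No source used here states the strand setting or how reads with several matches were handled. The authors deposited FPKM per gene and library. FPKM times gene length was a whole multiple of 1 step per library for 100% of values above 0 (tolerance 0.001), which gave the reads. The implied library size was 0.952 to 1.09 times the total, so the FPKM already carry a further scaling. No 2 libraries of a group agreed within sampling noise.

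For the 11945 genes averaging 1 FPKM or more, log2(FPKM + 0.5) was compared with limma 3.58.1 (R 4.3.3; intensity trend, two-sided), with Benjamini-Hochberg adjustment. Folds are ratios of mean FPKM, and log2 changes with the pseudocount understate the change of low genes. Read counts were used with voom as an alternative. The script was tested on simulated data. Members and gene lists were chosen with earlier results of these data known. Every tested keratin is named, with up to 6 others and the 3 smallest p-values of each other list. Tables used Python 3.11.15, numpy 2.4.6 and pandas 2.3.3.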

Additional observations from a re-analysis of the deposited data

How the results depend on the processing

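Of the 33 tested keratins, 23 kept their direction and side of the threshold under each of the 17 alternatives that tested them (20 of the 25 that fell, and KRT34, KRT40 and KRT81 among those that rose). The count of keratins called higher was 1 with a mean FPKM of at least 5 (17 lower; only 20 keratins, without KRT34 and KRT81, were tested there) and 3 to 5 with a library left out (3 without siControl replicate 3). Quantile normalization gave 21 lower and 6 higher, and turned KRT19 (0.026) and KRT18 (0.043). KRT18 also turned under total-read scaling (0.035), the same without keratin reads (0.0027) and TPM scaling (0.10). Leaving out a library gave −0.0062 to 0.075 for KRT80 and −0.011 to 0.23 for KRT83. Over all genes, total-read scaling called 1546 lower and 4309 higher, the same without keratin reads 1760 and 3672, TPM scaling 1171 and 5644, and the filter at 5 FPKM 1282 higher. The log2 difference in KRT1/KRT10 was −1.04 with a pseudocount of 0.1 and −0.51 with 1. The cause of these differences was not tested. Deviations of same-numbered libraries correlated by 0.116, 0.0135 and −0.103, within the −0.159 to 0.149 of differently numbered ones. With 3 libraries per group, these values cannot decide whether the numbers pair the samples. A replicate block gave 25 keratins lower and 5 higher. Depth limits the 22 keratins below the filter, with at most 44 reads in any library.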
